A study of Homo sapiens with 6 samples.

Results

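Transcript levels of translation factors and aminoacyl-tRNA synthetases were examined in LS180, an established cell line from a human colorectal adenocarcinoma. The members were taken by the gene symbol of the platform's annotation. All symbols that begin with EIF and a digit between 1 and 6 or with EEF1 or EEF2 were taken, with ETF1, GSPT1, GSPT2, EPRS1 and the synthetase symbols of the form AARS1. This gave 57 genes, measured by 61 probe sets, of 14812 genes named on the array. Of the 57, 54 are protein-coding, and 18 are synthetases. No filter on low values was applied.

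LS180 cells were transfected with an siRNA against CTNNB1, the gene of beta-catenin, which carries the transcriptional output of Wnt signalling, against the transcription factor gene MYC, or against MYU, a long non-coding RNA listed as VPS9D1-AS1. Each knockdown was hybridised to 1 Affymetrix array and paired with 1 control siRNA array named for it, which makes 6 arrays in 3 pairs. The controls of the CTNNB1 and MYC pairs both have the number 1 in their titles, and that of the MYU pair has 2. Whether the first 2 controls are the same hybridisation is not known, so the values of those pairs are given side by side only. The CTNNB1 array is tagged as treated with siRNA to CTNNB2, unlike its title and source name, which were followed here.

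Every value given is the log2 value of the knockdown array minus that of its control array, base 2 being assumed. The deposited values are centred within each pair, so neither levels nor the spread between controls can be had. With 1 array on either side no test is possible and no p-value is given. "Higher" and "lower" describe these arrays. A gene was counted as lower or higher at a 2-fold difference, and also at 1.5-fold, a log2 difference of 0.585. Precision is limited by the number of arrays. As a rough measure of noise, 101 keratin-associated and cornified envelope genes, which belong to hair and skin, had standard deviations of 0.13 (CTNNB1 pair), 0.10 (MYC pair) and 0.11 (MYU pair). Since levels cannot be had, it is not known whether this spread holds for the members. Where 3 values follow a gene without further words, they stand for the pairs with CTNNB1, MYC and MYU siRNA in that order. MYC itself had a difference of -2.38, -1.18 and 0.04, and VPS9D1-AS1 of -0.53, -0.24 and -0.50. CTNNB1 was not analysed here, since no probe set is listed with it. In the CTNNB1 pair 3 of 7 colon epithelium markers, 1 of 3 fibroblast markers (LUM, 2.78) and 1 of 2 leukocyte markers (CD68, 2.65) were 2-fold higher, and their part in the results was not tested.

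Protein synthesis starts when initiation factors bring the initiator tRNA, the small ribosomal subunit and the capped mRNA together. Elongation factors then deliver charged tRNAs and move the ribosome along, and release factors end the chain. The synthetases supply the charged tRNAs by joining each amino acid to its own tRNA. In mammalian cells several cytosolic synthetases are held in a multisynthetase complex. MYC is known for activating many genes of protein synthesis, often through the E-box CACGTG, and the stress factor ATF4 activates synthetase genes through elements of the form TGATGNAAN.

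Not all parts of this machinery could be followed. Of 14 subunits of eIF3, the scaffold of the initiation complex, and of 5 subunits of eIF2B, the exchange factor of eIF2, 0 were listed with a probe set. EIF4A1, EIF4A2 and the EIF4G genes were likewise not analysed here. All 15 mitochondrial synthetases that the symbols would take were also without a listed probe set. The comparison of cytosolic with mitochondrial synthetases therefore could not be made.

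Promoter sequences were taken from RefSeq (GRCh38.p14) as windows of 250 bases before to 50 bases after each start site. Windows were found for 46 of the 57 members, 14 of them synthetases. LARS1 and VARS1 were among those without one. The element TGATGNAAN, searched on both strands, stood in a window of 7 of 14 synthetase genes, against 307 of 9704 measured protein-coding genes (3.16%). Over all 27305 genes with a window the share was 4.45%. These 7 sites are shown because the synthetases held the element so often. Each has 10 flanking bases on either side, is written 5′ to 3′ in the direction of the gene, and has the element in capitals.
AARS1, chr16:70289676-70289704, minus strand: ttttctcgcaGTTGCATCAgccaagttag
CARS1, chr11:3057408-3057436, minus strand: cggggcggcgGTTGCATCAgattctagga
GARS1, chr7:30594834-30594862, plus strand: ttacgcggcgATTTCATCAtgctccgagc
IARS1, chr9:92293693-92293721, minus strand: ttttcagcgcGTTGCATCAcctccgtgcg
MARS1, chr12:57488053-57488081, plus strand: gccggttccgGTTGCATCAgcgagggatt
NARS1, chr18:57621804-57621832, minus strand: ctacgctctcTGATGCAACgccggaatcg
TARS1, chr5:33440956-33440984, plus strand: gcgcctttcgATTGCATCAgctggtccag
AARS1, CARS1, IARS1 and MARS1 share the same letters, GTTGCATCA, which is the reverse complement of the form in NARS1. Counted from the start site, the element began at position -3 in CARS1, -5 in MARS1, -14 in IARS1, -34 in GARS1 and -188 in AARS1. In TARS1 and NARS1 it began after the start site, at positions 2 and 15. Of the other 32 members with a window, EIF4E3 held the element, as TGATGAAAG.

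The E-box CACGTG was counted in the same windows. It stood in a window of 10 of 32 members other than synthetases (31.2%) and in 1 of 14 synthetases (7.14%), IARS1, against 1097 of 9704 measured protein-coding genes (11.3%). Over all 27305 genes with a window the E-box share was 8.77%. The count of 1 in 14 synthetases was thus not far from the share of other genes. EIF1B and the antisense EIF1B-AS1, both counted among the 10, share 1 such site, since their windows overlap. Of the 11 members with an E-box, the sites of 4 are shown first, with the E-box in capitals and 10 flanking bases. They were chosen after the values were seen: EIF4B was 1.5-fold lower with CTNNB1 siRNA, EIF5A2 and EEF2K were with MYC siRNA, and EIF4E is the main cap-binding protein.
EIF4B, chr12:53006424-53006449, plus strand: ccgctataatCACGTGattgcctcat
EIF4E, chr4:98929343-98929368, minus strand: acccatcggcCACGTGaccagtcctt
EIF4E, chr4:98929190-98929215, minus strand: acatatccgtCACGTGgccagaagct
EIF5A2, chr3:170908809-170908834, minus strand: taatccgcagCACGTGgggttgccag
EIF5A2, chr3:170908784-170908809, minus strand: gggcgctcttCACGTGactgggcgga
EEF2K, chr16:22206209-22206234, plus strand: tgggggcggcCACGTGagcgccacgc
The 250 bases before the start site are given for IARS1, which holds both motifs, and EIF4A3, whose value in the CTNNB1 pair was the lowest among members other than synthetases. Capitals mark the E-box and, at the right end of IARS1, the TGATGNAAN element.
IARS1, chr9:92293698-92293947, minus strand: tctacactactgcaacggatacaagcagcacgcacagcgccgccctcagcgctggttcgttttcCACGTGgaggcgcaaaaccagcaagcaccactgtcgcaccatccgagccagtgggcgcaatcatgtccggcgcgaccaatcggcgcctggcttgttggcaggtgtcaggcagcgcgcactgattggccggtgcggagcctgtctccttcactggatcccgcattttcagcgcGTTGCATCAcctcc
EIF4A3, chr17:80147129-80147378, minus strand: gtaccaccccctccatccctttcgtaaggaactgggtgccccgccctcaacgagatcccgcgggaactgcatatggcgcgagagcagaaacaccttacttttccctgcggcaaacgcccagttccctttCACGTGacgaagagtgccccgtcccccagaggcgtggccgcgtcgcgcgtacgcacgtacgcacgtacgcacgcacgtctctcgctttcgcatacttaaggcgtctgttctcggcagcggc

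The first comparison asked how these genes differ when beta-catenin is targeted. The leucyl, isoleucyl and lysyl tRNA synthetase genes, the helicase gene EIF4A3, EIF4B and GSPT1 were lower at 1.5-fold with CTNNB1 siRNA. The methyltransferase gene EEF1AKMT2, EIF5A2 and the inhibitor gene EIF4EBP1 were also among the 14 members lower at that fold. EIF4E3 and the stress kinase gene EIF2AK3 were the 2 members higher at it. At 2-fold, 3 of 57 members were lower, against 4.14% of all genes, and 0 were higher, against 2.8%. The share of lower members, 5.26%, was thus close to that of all genes. At 1.5-fold, 14 members (24.6%) were lower, against 9.8% of all genes, and 2 (3.51%) were higher, against 6.44%. Among protein-coding genes alone, 14 of 54 members (25.9%) and 11.7% of all such genes were lower at that fold. Of the 57, 44 (77.2%) lay below 0, against 48.9% of all genes, and the median was -0.28, against 0 over all genes.

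With MYC siRNA the differences were smaller. LARS1, IARS1 and NARS1, EIF4A3, EIF5A2, the inhibitor gene EIF4EBP1 and the kinase gene EEF2K were lower at 1.5-fold. At 2-fold 0 members were lower, against 0.446% of all genes, and 0 higher, against 0.412%. At 1.5-fold 7 (12.3%) were lower, against 3.63%, and 0 higher, against 2.15%. Below 0 lay 41 members (71.9%), against 49.4% of all genes, with a median of -0.09.

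With MYU siRNA 0 members were 2-fold lower or higher, against 0.0945% and 0.0608% of all genes. At 1.5-fold 0 were lower, against 1.21%, and 1 was higher, against 0.668%. This was EIF2AK1 at 0.59. Below 0 lay 25 members (43.9%), against 48.3% of all genes, with a median of 0.03. The members thus lay near the spread of all genes in the MYU pair, as the cumulative curves show. The target VPS9D1-AS1 itself lay within 1.5-fold in this pair (-0.50) and had -0.53 in the CTNNB1 pair. The part of this small difference in the result was not tested.

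**Figure D1:**
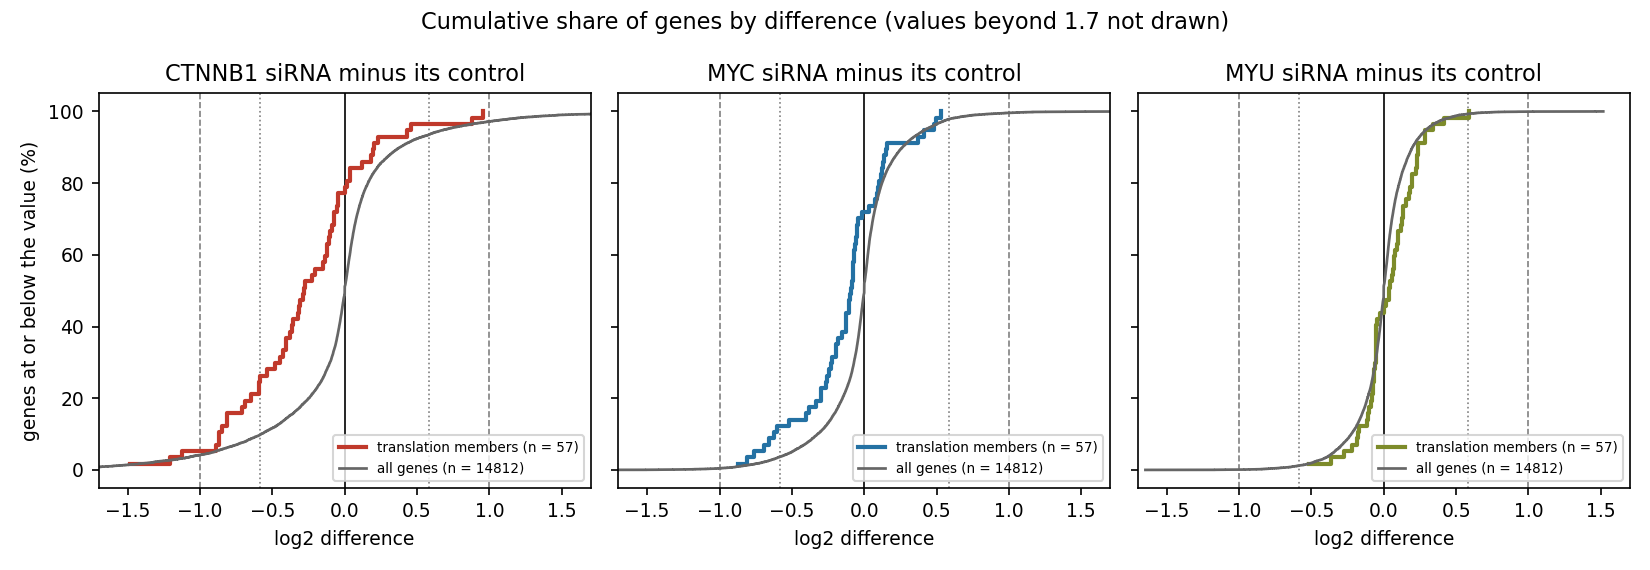
Cumulative share of genes (%) at or below each log2 difference, knockdown minus its control, for the 57 translation members (coloured) and all 14812 genes (grey) in each pair. Dotted and dashed lines mark 1.5-fold and 2-fold, and differences beyond the axis are not drawn. The members' curve lies left of that of all genes over most of its length with CTNNB1 siRNA (median -0.28) and close to it with MYU siRNA (median 0.03).

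Ribosomal protein genes, the nearest relatives by function, were set beside the members. In the CTNNB1 pair the 57 members had a median of -0.28 and 14 of them (24.6%) were 1.5-fold lower. The 50 cytosolic ribosomal protein genes had a median of -0.58 with 24 (48%) lower at 1.5-fold. The 73 mitochondrial ones had -0.56 with 30 (41.1%) lower. Of all genes 9.8%, and of protein-coding genes 11.7%, were lower at that fold. In the MYC pair the medians were -0.09 for the members, -0.09 for cytosolic and -0.20 for mitochondrial ribosomal protein genes. In the MYU pair they were 0.03, 0.13 and 0.07. The ribosomal protein genes were therefore the more uniform sets in the CTNNB1 pair, with standard deviations of 0.30 and 0.39 against 0.46 for the members. Levels are not given, so the sets could not be matched on expression.

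**Figure D2:**
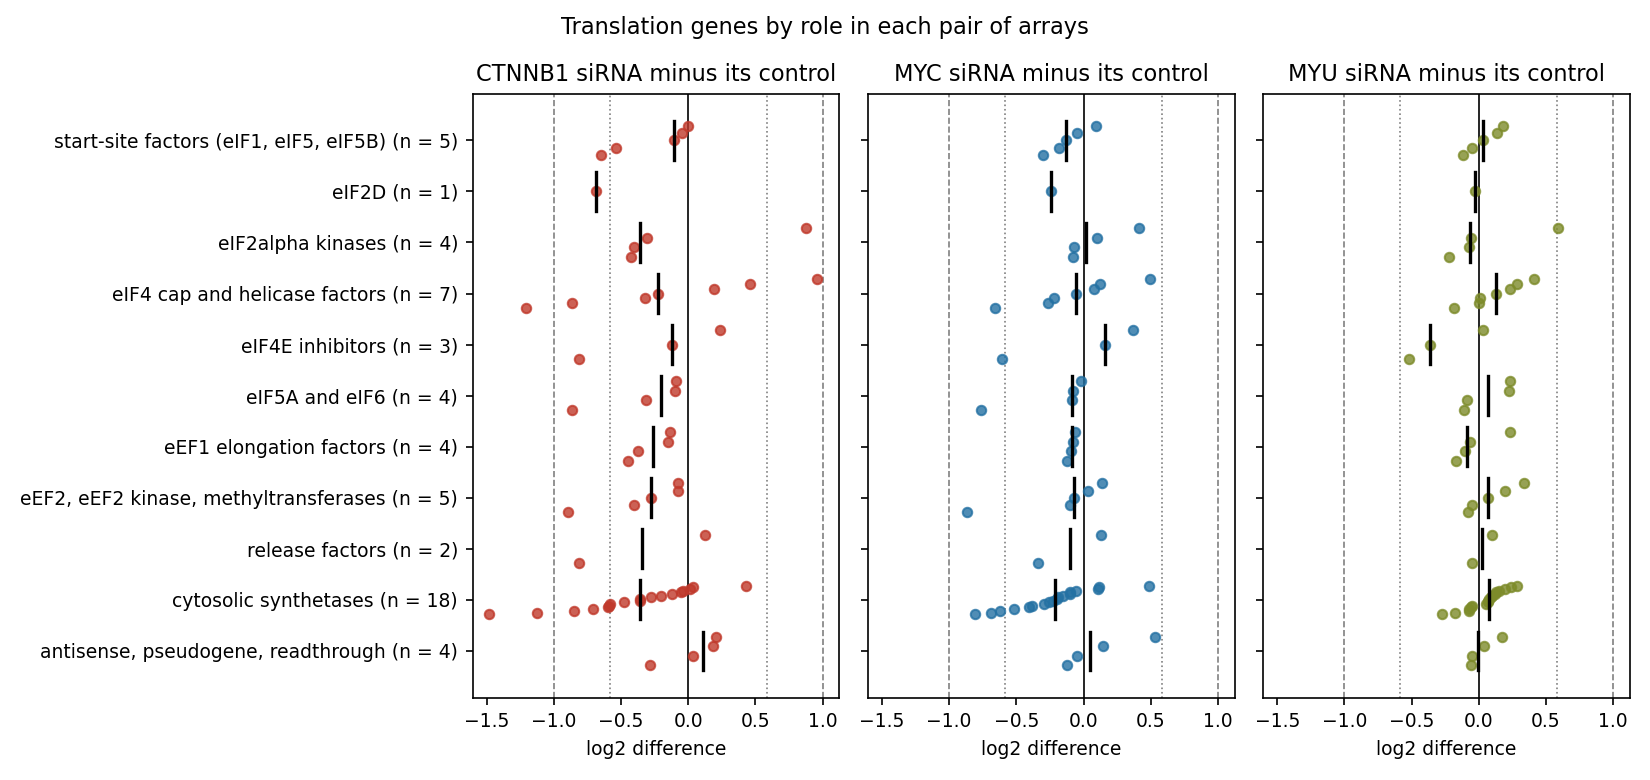
Log2 difference, knockdown minus its control, of each member (points) by role, with the median of each role as a black bar. Dotted and dashed lines mark 1.5-fold and 2-fold. The cytosolic synthetases spread furthest to the left with CTNNB1 siRNA, down to -1.48 for LARS1, and no point passes 2-fold with MYC or MYU siRNA.

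Start-site selection depends on eIF1 and eIF5, and eIF5B joins the ribosomal subunits. EIF5B had differences of -0.65, -0.13 and 0.03, and EIF5, which triggers GTP hydrolysis on eIF2, of -0.54, -0.30 and -0.12. EIF1 (-0.04, 0.09 and -0.05) and its paralogue EIF1B (0.00, -0.05 and 0.18) lay within 1.5-fold in each pair, as did EIF1AD, whose place in translation is less clear (-0.11, -0.18 and 0.14). Of 5 start-site genes 1, EIF5B, was 1.5-fold lower with CTNNB1 siRNA, against 9.8% of all genes, and EIF5 fell just short. With MYC and MYU siRNA 0 were lower at that fold, against 3.63% and 1.21% of all genes. A count of 1 in 5 is read no further. EIF2D, which can deliver initiator tRNA without eIF2, had -0.69, -0.24 and -0.03.

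The 4 kinases of eIF2alpha slow initiation under different stresses, and they did not move as 1 group. EIF2AK3, the PERK gene of the endoplasmic reticulum stress response, was 1.84-fold higher in the CTNNB1 pair (0.88) and had 0.41 and -0.07 in the other pairs. EIF2AK1, the haem-regulated kinase gene, had -0.43 and 0.10 with CTNNB1 and MYC siRNA and was just past 1.5-fold higher with MYU siRNA (0.59). EIF2AK4, the GCN2 gene, which senses uncharged tRNA, had -0.40, -0.07 and -0.05. EIF2AK2, the double-stranded RNA sensor PKR, had -0.31, -0.08 and -0.22. In each pair the 4 kinases thus held values on both sides of 0.

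Among cap-binding and helicase factors, EIF4A3 was lowest in the CTNNB1 pair. It encodes a helicase of the exon junction complex, which marks spliced mRNA, rather than the initiation helicase itself. EIF4A3 was 2.31-fold lower with CTNNB1 siRNA (-1.21), 1.58-fold lower with MYC siRNA (-0.66) and at 0.01 with MYU siRNA. EIF4B, which stimulates the initiation helicase, was 1.83-fold lower with CTNNB1 siRNA (-0.87), and its 2 probe sets gave -0.92 and -0.82. In the MYC pair the probe sets of EIF4B gave -0.14 and -0.39, and its mean in the MYU pair was 0.23. EIF4H, another cofactor of the helicase, had -0.22, -0.22 and -0.19.

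The cap-binding proteins differed among themselves. EIF4E, the main cap-binding protein, had -0.32, -0.06 and 0.00. EIF4E2, which binds the cap without eIF4G and is known mainly as a repressor, had 0.19, 0.13 and 0.41. EIF4E3 was 1.94-fold higher in the CTNNB1 pair (0.96) and had 0.49 and 0.13 in the others. EIF4E3 thus lay above EIF4E in each pair, with EIF4E minus EIF4E3 at -1.28, -0.55 and -0.13. EIF4E1B, known from oocytes, had 0.46, 0.08 and 0.28.

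The inhibitors of eIF4E also parted. EIF4EBP1, a target of mTOR signalling that blocks the binding of eIF4G to eIF4E, had -0.81, -0.60 and -0.36. Its paralogue EIF4EBP2 had 0.23, 0.37 and -0.52. EIF4EBP1 minus EIF4EBP2 was -1.04 with CTNNB1 siRNA, -0.97 with MYC siRNA and 0.15 with MYU siRNA. EIF4EBP1 was therefore below its paralogue in the CTNNB1 and MYC pairs, but not in the MYU pair, where both were below 0. EIF4ENIF1, which carries eIF4E into the nucleus, had -0.12, 0.16 and 0.03.

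A similar split was seen for eIF5A, the hypusine-bearing factor that helps ribosomes past difficult stretches. EIF5A2 was 1.82-fold lower with CTNNB1 siRNA (-0.87) and past 1.5-fold lower with MYC siRNA (-0.76), and had 0.23 with MYU siRNA. The main form EIF5A had -0.31, -0.08 and -0.11. EIF5AL1, a near copy of EIF5A whose signal may not be separate from it, had -0.09, -0.02 and -0.09. EIF6, which keeps the ribosomal subunits apart, had -0.10, -0.09 and 0.22.

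**Figure D3:**
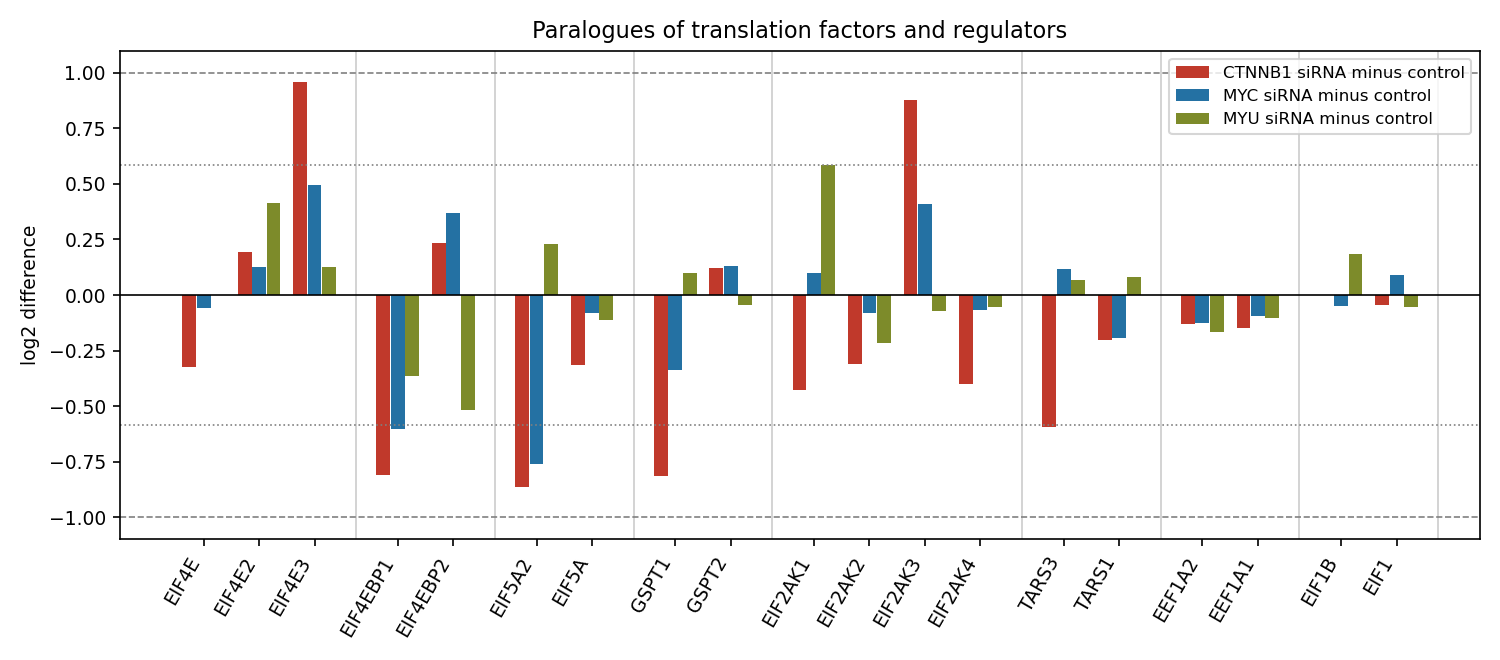
Log2 difference, knockdown minus its control, of paralogous translation factors and regulators, with 1 bar per pair of arrays (CTNNB1, MYC and MYU siRNA from left to right). Dotted and dashed lines mark 1.5-fold and 2-fold. EIF4E3 (0.96) and EIF2AK3 (0.88) stand above their relatives with CTNNB1 siRNA, and EIF5A2, GSPT1 and EIF4EBP1 stand below theirs.

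Elongation factors lay within 1.5-fold in all 3 pairs, as did most genes. Of all 14812 genes, 12406, 13955 and 14534 lay within that fold in the CTNNB1, MYC and MYU pairs. EEF1A1, which delivers charged tRNA to the ribosome and has many retrocopies, had -0.15, -0.09 and -0.11, and EEF1A2, its form of muscle and nerve, had -0.13, -0.13 and -0.17. The exchange factor subunit gene EEF1D had -0.45, -0.08 and -0.07. For EEF1G, another subunit, the probe sets disagreed in the MYC pair (-0.46 and 0.34), so its mean of -0.06 there is uncertain. In the CTNNB1 and MYU pairs its means were -0.38 and 0.24. EEF2, the translocase, had -0.40, 0.14 and 0.34.

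The modifiers of elongation factors included the lowest value of the MYC pair. EEF2K, the kinase that inactivates eEF2, was 1.83-fold lower with MYC siRNA (-0.87), against -0.08 with CTNNB1 siRNA and -0.08 with MYU siRNA. Whether this gap between knockdowns exceeds the error was not tested. EEF1AKMT2, a lysine methyltransferase of eEF1A, was 1.86-fold lower with CTNNB1 siRNA (-0.89) and had -0.10 and -0.05 in the other pairs. EEF1AKMT1 had -0.08, 0.03 and 0.20, and EEF1AKMT3 had -0.28, -0.07 and 0.07.

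The release factor eRF3 has 2 genes. GSPT1, the widely used form, was 1.76-fold lower with CTNNB1 siRNA (-0.82) and had -0.34 and 0.10 with MYC and MYU siRNA. GSPT2, an intronless copy, had 0.12, 0.13 and -0.05. GSPT1 minus GSPT2 was -0.94, -0.47 and 0.15, so GSPT1 lay below its copy in the CTNNB1 and MYC pairs. ETF1 was not analysed here.

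The 18 cytosolic synthetases were below 0 in 15 cases with CTNNB1 siRNA, with a median of -0.36, and 6 of them passed 1.5-fold downward and 0 upward. Of all genes in that pair, 48.9% lay below 0 and 9.8% were 1.5-fold lower. With MYC siRNA 15 were below 0, against 49.4% of all genes, and 3 were 1.5-fold lower, against 3.63%, with a median of -0.21. With MYU siRNA 6 were below 0, against 48.3%, and 0 passed 1.5-fold, against 1.21% lower and 0.668% higher, with a median of 0.07. KARS1 and GARS1 are counted here, although their genes also give the mitochondrial enzymes. The 35 other factors and regulators, without the 4 antisense, pseudogene and readthrough transcripts, had medians of -0.28, -0.08 and 0.00.

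LARS1 and IARS1 were the lowest synthetases of the CTNNB1 and MYC pairs. LARS1, for leucine, was 2.79-fold lower with CTNNB1 siRNA (-1.48) and 1.75-fold lower with MYC siRNA (-0.81), and had -0.07 with MYU siRNA. IARS1, for isoleucine, was 2.18-fold lower with CTNNB1 siRNA (-1.13) and 1.61-fold lower with MYC siRNA (-0.69), and had -0.06 with MYU siRNA. VARS1, for valine was not next to them in either pair and had -0.59, -0.38 and -0.17. Its 2 probe sets gave -0.39 and -0.79 in the CTNNB1 pair, so it passed 1.5-fold by the mean but not by both.

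LARS1 and IARS1 belong to the multisynthetase complex. This grouping was added after the values were seen and is a description only. In the CTNNB1 pair the 7 measured enzymes of the complex had a median of -0.71 and 4 (57.1%) were 1.5-fold lower. The 11 others had a median of -0.20 with 2 (18.2%) lower. Of all genes in that pair, 9.8% were lower at that fold. The other low members of the complex were KARS1, for lysine (-0.85), and EPRS1, the joint enzyme for glutamate and proline (-0.71). RARS1, for arginine, lay just short of 1.5-fold at -0.582, and TARS3 just past it at -0.594. MARS1, for methionine, had -0.36 and QARS1, for glutamine, 0.04, so the complex did not move as a whole. In the MYC pair the medians of the 2 groups were -0.25 and -0.19, and in the MYU pair 0.10 and 0.07. QARS1 stood apart in the MYC pair too, at 0.48.

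Outside the complex, NARS1, for asparagine, had -0.48, -0.62 and -0.07, and YARS1, for tyrosine, -0.28, -0.52 and 0.20. AARS1, for alanine, had -0.12, -0.40 and -0.27. NARS1, YARS1 and AARS1 had lower values in the MYC than in the CTNNB1 pair, a difference that was not tested. SARS1, for serine, had -0.36, -0.23 and 0.29. TARS1, for threonine, had -0.20, -0.19 and 0.08, while TARS3, a second cytosolic threonine enzyme, had -0.59, 0.12 and 0.07. CARS1, for cysteine, was the highest synthetase of the CTNNB1 pair at 0.43, with 0.10 and 0.07 in the others. WARS1, for tryptophan (0.01, -0.05 and -0.05), HARS1, for histidine (-0.05, -0.15 and 0.09), and GARS1, for glycine (-0.04, -0.10 and 0.24), lay closest to 0 of those outside the complex in the CTNNB1 pair.

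**Figure D4:**
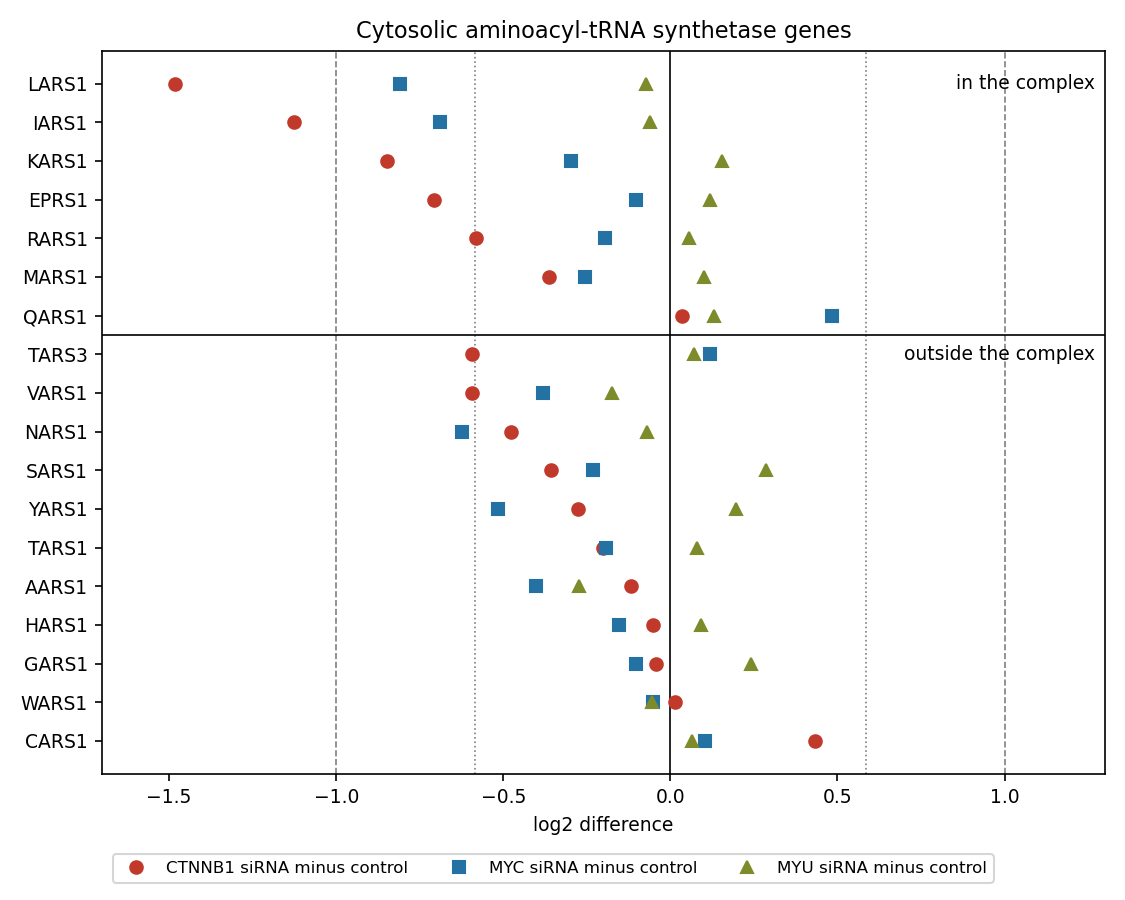
Log2 difference, knockdown minus its control, of the 18 cytosolic synthetase genes in the CTNNB1 (circles), MYC (squares) and MYU (triangles) pairs. Enzymes of the multisynthetase complex stand above the horizontal line, and dotted and dashed lines mark 1.5-fold and 2-fold. LARS1 and IARS1 are 2-fold lower with CTNNB1 siRNA, and all 18 lie within 1.5-fold with MYU siRNA.

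The promoter motifs were set beside the differences. The 7 synthetases with a TGATGNAAN element had medians of -0.20, -0.25 and 0.07, and the 7 without one had -0.36, -0.15 and 0.12. For the E-box, the 11 members that held it had a median of -0.31 with CTNNB1 siRNA and the 35 without it -0.12. With MYC siRNA these medians were -0.22 and -0.09, and 11 of 11 members with the E-box lay below 0, against 23 of 35 without it. In the CTNNB1 pair 9 of 11 with it lay below 0, against 25 of 35 without it. In the MYU pair these counts were 4 of 11 and 15 of 35, with medians of 0.01 and 0.05. Over the measured protein-coding genes 608 of 1097 with the E-box lay below 0 with MYC siRNA (median -0.03), against 4264 of 8607 without it (median 0.00). Of the 11, EIF1B (-0.05) and EIF1B-AS1 (-0.05) share a site, and these, EIF4E (-0.06) and EIF2AK2 (-0.08) lay within the standard deviation of 0.10 given above for hair and skin genes. The largest differences were those of EEF2K, EIF5A2, IARS1 and EIF4A3. A match of letters in such a window does not show that a factor binds there.

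Since no mitochondrial synthetase had a value, 10 measured factors of mitochondrial translation were set beside the cytosolic synthetases, a choice made after the gap was seen. With CTNNB1 siRNA the 18 cytosolic synthetases had a median of -0.36 and the mitochondrial factors -0.43. With MYC siRNA the medians were -0.21 and -0.39, and with MYU siRNA 0.07 and -0.21. The largest gap between the 2 medians was thus that of the MYU pair, 0.29. The 10 mitochondrial factors ranged there from -0.77 to 0.20, with 8 below 0, against 48.3% of all genes. Only 1 was 1.5-fold lower, against 1.21%. The 73 mitochondrial ribosomal protein genes had a median of 0.07 in that pair, so the gap did not extend to them. MTFMT, which formylates the mitochondrial initiator tRNA, had -0.95, -1.09 and -0.13. MRPL58, a release factor built into the mitochondrial ribosome, had -0.74, -1.001 and -0.01, and the initiation factor gene MTIF2 had -0.85, -0.72 and -0.49. MRRF, for ribosome recycling, had its lowest value with MYU siRNA (-0.34, 0.01 and -0.77).

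The last 4 members do not encode translation factors of their own. EIF3J-DT, a divergent transcript, had 0.20, 0.53 and -0.05, EIF1B-AS1 had 0.03, -0.05 and 0.04, and the pseudogene EEF1DP3 had 0.18, 0.15 and -0.05. The readthrough EEF1AKMT4-ECE2 had -0.29, -0.12 and 0.17. All 4 lay within 1.5-fold in every pair, as did most genes in each of the pairs.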

How the data were processed

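Biotin-labelled RNA of 6 LS180 samples was run on Affymetrix arrays by the maker's standard protocol, per the labels. The deposited table holds log2 values of 44629 probe sets, with the base assumed. The authors centred them within each pair: every probe set's pair of values adds up to 0 within 1e-06. For background correction, normalization and summarisation, the method is not given in the sources used here.

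Per the platform's annotation, 1 gene symbol each is given to 15835 probe sets, several to 0, and 28794 are unnamed here. All 14812 genes matched the gene table of GRCh38.p14. Probe sets of a gene were averaged, which concerned 651 genes and 4 members. The median standard deviation between them was 0.10 with CTNNB1, 0.08 with MYC and 0.06 with MYU siRNA, and this was taken as the spread when settings were compared. Depth does not apply to arrays.

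Members, roles and lists were chosen with earlier results of these data known. Every member is named, by a rule that gives the largest differences of each role in all pairs. The planned contrast with mitochondrial synthetases was not run. Code was tested on simulated data. Python 3.11.15, numpy 2.4.6, pandas 2.3.3 and matplotlib 3.10.9 were used.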

Additional observations from a re-analysis of the deposited data

How the results depend on the processing

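At 1.5-fold in place of 2-fold, the CTNNB1 pair had 14 lower and 2 higher members, against 3 and 0, the MYC pair 7 lower, against 0, and the MYU pair 1 higher, against 0. Using the probe set nearest to 0, centring each array on its median, keeping protein-coding members, or leaving out regulators and non-coding transcripts changed none of the 2-fold counts, and moved the medians by less than the spread between probe sets. Of the members' single values, 5 of 171 moved by more than that spread with the probe set nearest to 0, among them EEF1G in the MYC pair (0.34 in place of -0.06) and VARS1 in the CTNNB1 pair (-0.39 in place of -0.59). Without LARS1 the gap between the median of the complex and that of the other synthetases in the CTNNB1 pair was -0.44 in place of -0.50. IARS1, also 2-fold lower there, was kept in. The grouping was added after the values were seen, so this variant does not test it. Other settings for the contrast with mitochondrial synthetases were not run, since none of these had a value. They were run for the mitochondrial translation factors set beside the cytosolic synthetases instead. With the probe set nearest to 0, that gap in medians was 0.02 in place of 0.07 (CTNNB1 pair) and 0.24 in place of 0.29 (MYU pair). In the MYC pair it stayed at 0.18. Without KARS1 and GARS1 it was 0.07, 0.18 and 0.28. No paired analysis was possible because each knockdown has 1 array and 1 control, and no array could be left out in turn. Small differences of well expressed genes have no error here.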

Other observations

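Genes next to this machinery were listed by textbook role. Of 10 measured genes of the amino acid and eIF2alpha stress response, 3 were 1.5-fold lower and 1 higher with CTNNB1 siRNA, against 9.8% and 6.44% of all genes, 1 was lower with MYC siRNA, against 3.63%, and 0 passed that fold with MYU siRNA, against 1.21% lower and 0.668% higher. PSAT1, of serine synthesis, had -0.996 with CTNNB1 siRNA, -0.93 with MYC siRNA and -0.02 with MYU siRNA, and PHGDH, the first enzyme of that route, -0.77, -0.48 and 0.16. IMPACT, which restrains GCN2, had -0.94, -0.20 and -0.42, and SESN2, an inhibitor of mTOR signalling, 0.61, 0.32 and 0.58. ATF4 itself had -0.06, -0.30 and 0.12.

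Of 10 other cytosolic translation factors, 2 were 1.5-fold lower with CTNNB1 siRNA, against 9.8% of all genes, DENR (-0.89), which acts in reinitiation and ribosome recycling, and the ribosome rescue factor gene HBS1L (-0.68). In the MYU pair 1 was 1.5-fold higher, against 0.668% of all genes, PDCD4, an inhibitor of the initiation helicase, with 0.26, 0.43 and 0.61 in the 3 pairs. AIMP1, a scaffold of the multisynthetase complex, had -0.42, -0.33 and -0.04. Of 6 measured regulators of tRNA and mTOR signalling, ELAC2 (-0.88), which trims tRNA ends, and the tRNA methyltransferase gene TRMT1 (-0.83) were 1.5-fold lower with CTNNB1 siRNA, against 9.8% of all genes, and 0 passed 1.5-fold with MYC or MYU siRNA, against 3.63% and 1.21% lower. Counts of 1 or 2 in such short lists are read no further. MTOR had -0.43, -0.12 and -0.38.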
